A study of Arabidopsis thaliana with 20 samples.

Results

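BCL7B occupancy with and without BRM was described from the narrow peak lists of 4 of the 20 libraries of the series, 2 from BCL7B seedlings and 2 from BCL7B brm-1 seedlings. Members were the 12031 regions of the nuclear chromosomes in which every one of the 4 lists held a peak, of 19933 regions with a peak in at least 1 list, and the genes whose transcription start site (TSS, TAIR10.1 annotation) lay within 2 kb of a summit. BCL7B seedlings carried pBCL7B:BCL7B-GFP in the bcl7b mutant, and BCL7B brm-1 seedlings carried the same transgene in bcl7b plants that also had brm-1, a null allele of BRM. Chromatin immunoprecipitation followed by sequencing (ChIP-seq) was done with an antibody against GFP on seedlings of the line aged 14 days and grown in short days. Both groups lack native BCL7B and express the tagged protein from its native promoter, so neither is wild type, and the cells of all seedling organs are pooled. The study gives the libraries as biological replicates. The comparison asks where on the genome BCL7B depends on BRM, and a peak list cannot check the genotype of the plants.

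SWI/SNF complexes are multi-subunit machines that use the ATP hydrolysis of a motor subunit to slide or evict nucleosomes, and they open promoters for transcription factors. Arabidopsis has several such motors, among them BRM, SYD and the MINU proteins, and each forms its own class of complex with common and class-specific subunits. BCL7 proteins are small accessory subunits of these complexes, known also from animals, and in Arabidopsis they are found with more than a single motor. BRM is known in seedlings for its part in leaf development, hormone responses and the timing of the change from juvenile to adult growth.

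Sequences at regions that changed most are shown here because the motifs they hold differed in frequency between the regions that fell and those that rose, as given further on. Coordinates are those of the TAIR10.1 assembly, each sequence runs 5′ to 3′ on the strand given, and capitals mark a copy of the motif. Further copies on either strand can stand in lower case, as at AT5G65740, where the reverse complement of TGGGCC follows. The first pair, from regions that fell, holds a GAGA repeat (GAGAGAGA). The others, from regions that rose, hold a telo-box (AAACCCTA) or a site II element (TGGGCC or TGGGCT), words known from promoters of ribosomal protein genes and other housekeeping genes.
AT1G76520, chr1:28715158-28715185, plus strand: ctctttcataGAGAGAGAgtgagaaagt
AT1G72700, chr1:27366115-27366142, plus strand: acagctgataGAGAGAGAgagagaaaaa
AT4G30845, chr4:15019716-15019743, minus strand: agctcggctaAAACCCTAgaaaacctct
MORF6, chr2:14846300-14846327, minus strand: tcgtatccatAAACCCTAgtctcgtcgt
MORF6, chr2:14846395-14846420, minus strand: ctcattcaaaTGGGCCtcatatttag
AT5G65740, chr5:26303577-26303602, minus strand: cattaaatatTGGGCTtttaggccca
The summit of the EMB2762 region lay 1 bp downstream of the TSS, and the 100 bases before that TSS hold a single site II element. Of the promoters of 27444 protein-coding genes, 12.5% hold a site II element in a window of this length, on either strand.
EMB2762, chr2:7499372-7499471, plus strand: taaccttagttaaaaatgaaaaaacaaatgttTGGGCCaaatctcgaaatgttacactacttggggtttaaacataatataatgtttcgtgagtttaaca

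BCL7B lists held 17429 and 17711 nuclear peaks, and BCL7B brm-1 lists held 14922 and 15300. The median fold enrichment, which is the pileup at a summit over the background, was 3.38 and 3.39 in BCL7B and 2.80 and 2.78 in BCL7B brm-1. The groups did not overlap in either measure, and the exact two-sided permutation test of 2 against 2 libraries gave its smallest possible p, 0.33, for both. The genome background recovered from the lists was 15.7 and 17.3 fragments in BCL7B and 21.9 and 23.5 in BCL7B brm-1, whereas the median summit pileup was 72 and 79 against 73 and 77. A deeper background thus went with the lower fold in brm-1, and the part of depth in the difference of the fold was not tested. Depth as read number is unknown from these files. A GFP-free library was not analysed here.

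Since the fold of all sites shifted between the groups, sites were compared by rank. The rank of a region was the percentile of its fold enrichment within its own list, so that 100 is the strongest peak of that list, and a change is the mean of the BCL7B brm-1 libraries minus the mean of the BCL7B libraries in percentile points. A rank shows the order of sites and not the amount of protein bound. At the shared regions the median percentile was 63.4 and 63.9 in BCL7B and 58.7 and 59.6 in BCL7B brm-1, and the median change was -2.37 (interquartile range -15.2 to 7.96). Shared regions make up more of the shorter brm-1 lists. Ranked among shared regions alone, which centres every library alike, the median change was 0.343. Ranks agreed between the BCL7B replicates with a Spearman correlation of 0.903 across regions and between the brm-1 replicates with 0.842, against 0.677 to 0.684 between groups. Regions share the libraries and are not independent.

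The order of the sites differed between the groups in both directions. Of the 12031 regions, 767 (6.38%) fell and 343 (2.85%) rose in BCL7B brm-1 at an adjusted p under 0.05 (limma, Benjamini-Hochberg over all shared regions). The median change was -39.2 among those that fell and 26.2 among those that rose. Both brm-1 values lay below both BCL7B values at 4370 regions (36.3%) and above them at 2955 (24.6%). The excess of falls depended on the scale. The other scales given here centre the shared regions alike in every library. They therefore pull falls and rises toward balance and cannot show whether the excess is real. Ranked among shared regions only, 455 fell and 401 rose, and with the log2 of the fold centred on these regions 1559 fell and 1594 rose, so 53.2% and 49.4% of calls were falls against 69.1% in the percentile of the full list. The calls also depended on both BCL7B libraries. Without BCL7B replicate 1 limma called 0 falls and 19 rises, and without BCL7B replicate 2 it called 0 falls and 64 rises, with 1337 and 1294 regions lower at an unadjusted p under 0.05. Without brm-1 replicate 1 or 2 it called 1241 and 1350 falls, and 294 and 320 rises.

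The largest falls took sites from near the top of the BCL7B lists to near the bottom of the brm-1 lists. At the 12 regions named for the largest falls, BCL7B percentiles ran from 70.0 to 98.5 and brm-1 percentiles from 3.2 to 29.2, with adjusted p of 0.0338 each (limma) and standard errors of 9.39 to 11.6 points. MES11, a methyl esterase gene (region chr3:11647282-11648664), had percentiles of 91.7 and 95.7 in BCL7B and 11.6 and 10.5 in brm-1. WAK2, which encodes a wall-associated kinase of the family that senses pectin (chr1:7443715-7445170), had 92.1 and 94.4 in BCL7B and 11.6 and 10.5 in brm-1. The changes were -82.7 and -82.2, and non-overlap of the groups was a condition for naming a region here. The fold enrichment of MES11 went from 5.88 and 6.75 in BCL7B to 2.14 and 2.09 in brm-1.

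CSLC12, a glucan synthase gene of the family that makes the xyloglucan backbone (chr4:4804882-4805560), had percentiles of 91.2 and 85.1 in BCL7B and 7.6 and 17.0 in brm-1. AT1G76520, annotated as an auxin efflux carrier family gene (chr1:28714549-28715518), had 97.9 and 98.5 in BCL7B and 21.4 and 21.7 in brm-1. ARGOS, an auxin-induced gene that promotes organ size (chr3:22128785-22130331), had 82.1 and 87.7 in BCL7B and 15.2 and 5.2 in brm-1. All brm-1 libraries were far below all BCL7B libraries at each of these genes. GUN4, whose product stimulates Mg-chelatase in chlorophyll synthesis (chr3:21949006-21950460), had 70.0 and 72.9 in BCL7B and 3.2 and 4.1 in brm-1. MYB6, a MYB transcription factor gene (chr4:5992694-5994906), had 89.9 and 93.5 in BCL7B and 29.2 and 19.2 in brm-1. The other members were AT1G74910, the NLR gene AT5G41740, the noncoding RNA gene AT1G09907, HHP2 and AT1G72700, with changes of -78.6, -72.0, -69.8, -69.1 and -68.4. The mean summit of the 4 libraries lay in the annotated 5′ UTR at MES11, AT1G74910, AT1G76520, CSLC12 and AT1G72700. It was within 1 kb upstream at WAK2, ARGOS and AT5G41740, and in a coding exon at AT1G09907, HHP2 and MYB6. AT1G09907 is noncoding, so that exon is of another gene. At GUN4 it was at -46 bp from the TSS, in an intron of another gene. Summits of brm-1 lay -834 bp from those of BCL7B at HHP2, 532 at MYB6, -469 at ARGOS and -374 at GUN4 (minus for upstream). There the mean need not be a summit of any library. With summits matched within 200 bp, 8 of the 12 regions were matched, and all 8 were called. At 5 of the 12 regions another TSS lay within 2 kb, so the gene named is only the nearest.

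The largest rises went the opposite way. At the 12 regions named for them, BCL7B percentiles ran from 3.7 to 36.5 and brm-1 percentiles from 57.4 to 92.1, with adjusted p of 0.0338 to 0.0341 (limma) and standard errors of 9.11 to 10.9 points. AT3G03970, an ARM repeat gene (chr3:1030396-1030852), had 20.8 and 16.2 in BCL7B and 89.9 and 92.1 in brm-1. Its fold enrichment was 2.61 and 2.50 in BCL7B and 4.21 and 4.34 in brm-1, so the fold was higher in brm-1 also before ranking. The fold is not scaled between libraries, so it does not show whether more BCL7B was bound. The ratio of the mean fold in brm-1 to that in BCL7B was 1.33 to 1.67 over the 12 regions, against a median of 0.779 over all shared regions.

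MORF6, a gene of the family of RNA editing factors of plastids and mitochondria (chr2:14845991-14846481), had percentiles of 7.3 and 8.6 in BCL7B and 76.0 and 60.5 in brm-1. PGR7, which is needed for normal photosynthetic electron flow (chr3:7435752-7436396), had 24.3 and 15.0 in BCL7B and 80.9 and 74.8 in brm-1. EMB2762, annotated as a CCAAT-binding factor (chr2:7499231-7499759), had 36.5 and 21.8 in BCL7B and 89.3 and 86.4 in brm-1. Non-overlap of the groups was again a condition for naming these regions. AT1G22520, annotated as a subunit of the MICOS complex that shapes mitochondrial inner membranes (chr1:7954186-7954882), had 10.8 and 10.6 in BCL7B and 62.4 and 82.4 in brm-1, the widest gap between replicates among the 4 genes. The rest were AT4G30845 (70.4), AT2G39000 (65.1), AT3G19010 (60.2), AT5G65740 (58.9), AT2G24560 (58.1), AT1G05720 (55.7) and AT2G04620 (55.6), each given with its change. The summit was within 100 bp of the TSS at 9 of the 12 rises and at 2 of the 12 falls. Of all 12031 shared regions, 1953 lay 0 to 100 bp upstream and 2973 lay 0 to 100 bp downstream. For all 767 falls these counts were 141 and 131, and for all 343 rises 62 and 148, so the named regions differ more than the called regions do. Another TSS lay within 2 kb at 10 of the 12 rises. Without BCL7B replicate 1 or 2, none of the 24 regions passed the threshold (largest adjusted p 0.183 and 0.173, limma), while all 24 kept their direction.

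**Figure D1:**
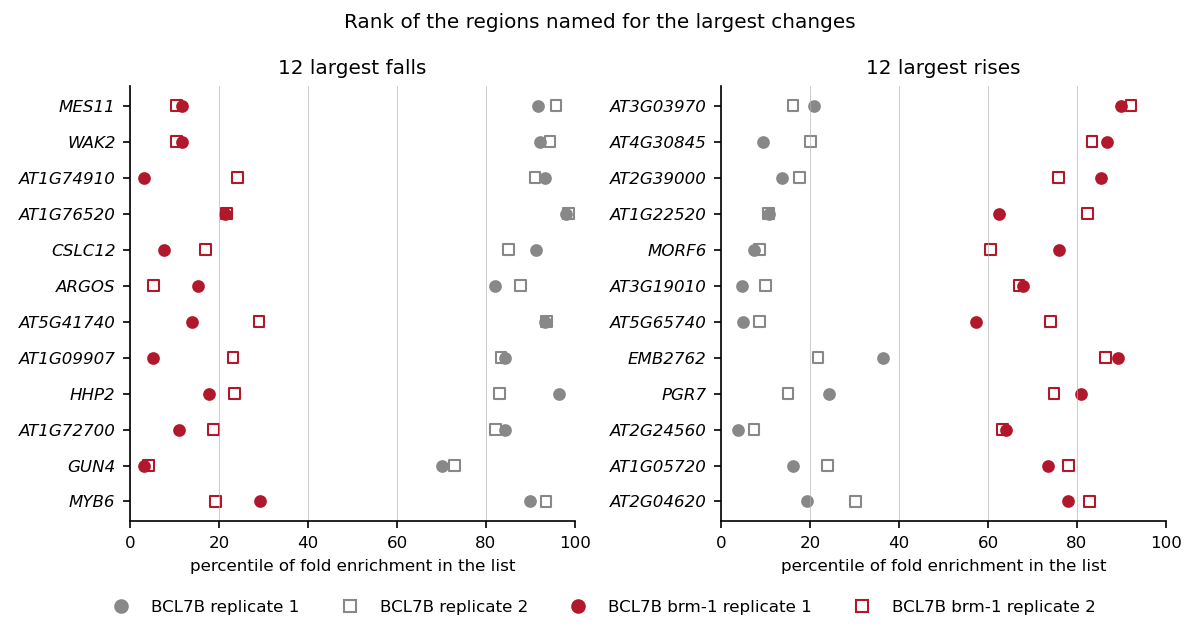
Percentile of fold enrichment within each list (x axis, 0 to 100) at the 12 regions with the largest falls (left) and the 12 with the largest rises (right), grey for BCL7B and red for BCL7B brm-1, filled circles for replicate 1 and open squares for replicate 2. In the left panel all grey points lie at 70.0 or above and all red points at 29.2 or below, and in the right panel all grey points lie at 36.5 or below and all red points at 57.4 or above.

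Sites that fell and rose could be close neighbours. Of the 44 pairs of called regions that followed each other within 5 kb, 29 held a fall beside a rise and 15 held calls of the same direction. Whether opposite pairs were more frequent than the numbers of falls and rises alone would give was not tested. HHP2, a gene of heptahelical membrane proteins, fell by 69.1 points, and the region of AT4G30845, 2385 bp away, rose by 70.4. The EMB2762 region rose by 58.7 points and that of EXL5, 3410 bp away, had a change of -34.3. The region at the TSS of AT5G65740 rose by 58.9 points, and a region 2142 bp from it, also nearest to that gene, had a change of -54.7. EXL5 and the second region of AT5G65740 were chosen after their values were seen.

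The study's own loci differed among themselves. MIR156C, a gene for the precursor of miR156, which keeps leaves juvenile by repressing SPL genes, had percentiles of 72.2 and 66.0 in BCL7B and 22.0 and 16.1 in brm-1 at a region upstream of its TSS (summit at -493 bp, chr4:15415578-15416198). It fell by 50.03 points (standard error 10.13, adjusted p = 0.0341, limma). MIR156A had a summit within 2 kb in both BCL7B lists, at 61.9 and 33.8, and in neither brm-1 list. SPL9, a target of miR156, likewise had 28.0 and 20.5 in BCL7B and no summit within 2 kb in brm-1. SPL15 had no summit within 2 kb in any of the 4 lists. The study reports from its signal tracks that BRM and the BCL7 proteins are bound at both SPL genes. Only listed summits near the TSS were counted here, so an absent summit does not show absent binding. BRM itself had 85.2 and 80.8 in BCL7B and 83.8 and 93.3 in brm-1, which overlap (adjusted p = 0.377, limma). BCL7A (AT4G22320) had 27.5 and 14.3 in BCL7B and 13.2 and 6.0 in brm-1, with a change of -11.3 and an adjusted p of 0.354 (limma). BCL7B (AT5G55210) had 97.3 and 95.0 in BCL7B and 98.3 and 98.5 in brm-1, and it had no BRM peak. Reads of the BCL7B transgene and of the gene in its own place cannot be told apart there.

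Changes were then read per gene. Of 37899 annotated nuclear genes, 17156 had a shared region within 2 kb of the TSS, each taking the nearest, and the region fell for 1030 of them (6.0%) and rose for 538 (3.14%), with a median change of -1.70. Neighbouring genes can take the same region: the 17156 genes held 10643 distinct regions. A set of 50 lists of genes was drawn from symbols and product names of the annotation, and 47 of them held at least 10 genes with a shared region. Of those, 34 had a median below that of all genes. The counts below are read against 6.0% and 3.14% and carry no test of the list.

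The 6 lists with the lowest medians were B-box and CONSTANS-like, ethylene, meristem and LBD, cytokinin response regulator, cellulose synthase, and Aux/IAA and ARF genes. Among 23 B-box and CONSTANS-like genes, zinc finger factors of light signalling and flowering, 6 fell and none rose, and the median change was -18.3. BBX14 (AT1G68520) had percentiles of 66.2 and 52.3 in BCL7B and 4.0 and 6.3 in brm-1. STO, a B-box factor of light signalling, had 92.2 and 87.1 in BCL7B and 27.3 and 58.1 in brm-1. As at every called region, groups did not overlap at either gene, although the brm-1 replicates of STO were far apart. BBX15 and BBX16 fell by 43.9 and 41.3 points, and BBX32 and COL4 were the other falls.

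Among 18 ethylene signalling genes, 4 fell and none rose, with a median of -18.3. By annotation the 4 genes belong to synthesis, perception or response, and the assignment of the region to ACO1 is uncertain, as given next. ACO1 (AT2G19590), an ACC oxidase gene of the last step of ethylene synthesis, had percentiles of 87.6 and 84.7 in BCL7B and 47.8 and 49.7 in brm-1. Its summit lay at -1094 bp from the TSS, nearer to another gene, in a region with 2 peaks in a library, and the call was lost by recovered pileup (adjusted p = 0.0855, limma), by −log10 p (0.0516) and by rank among shared regions (0.0509). The receptor gene ERS1 had 89.6 and 85.9 in BCL7B and 59.2 and 61.3 in brm-1. EIN3, the main transcription factor of the pathway, had 92.0 and 93.5 in BCL7B and 76.0 and 70.6 in brm-1. These 3 genes kept middle to high ranks without BRM, and ACS10, annotated as an ACC synthase gene, did too (change -17.2). Among 13 cytokinin response regulator genes, 3 fell and none rose, and the median was -14.4. RR16, RR12 and ARR7 had changes of -43.5, -28.5 and -17.5.

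Auxin and wall genes stood beside them. Of 26 Aux/IAA and ARF genes, which encode repressors and DNA-binding factors of the auxin response, 4 fell and 1 rose, with a median of -13.4. IAA1, an auxin-induced repressor gene, had percentiles of 95.4 and 92.8 in BCL7B and 31.8 and 48.4 in brm-1. ARF1 had 65.5 and 67.5 in BCL7B and 13.9 and 19.2 in brm-1, and ARF19 and ARF10 had changes of -45.3 and -42.0. The sole rise of the list was IAA31, at a summit 1461 bp downstream of the TSS, with 98.9 and 98.5 in brm-1 and 87.7 as the higher of its BCL7B values. BBX32, COL4 and IAA31 were chosen after their values were seen. Of 17 cellulose synthase genes, 2 fell and none rose (median -13.9): CSLC12, given above, and CESA2, a subunit of cellulose synthase, with 96.5 and 94.9 in BCL7B and 74.5 and 62.8 in brm-1. Of 15 meristem, organ boundary and LBD genes 1 fell, LBD4, with 55.7 and 47.4 in BCL7B and 8.3 and 4.8 in brm-1, and the median was -16.4.

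The 6 lists with the highest medians were ribosomal protein, proteasome, RNA helicase and splicing, respiratory chain, pentatricopeptide repeat and flowering time genes. Of 224 ribosomal protein genes, 12 rose and 5 fell, and the median change was 8.88 (interquartile range -4.86 to 22.4). GCD1, annotated as ribosomal protein L20 (AT5G62270), had percentiles of 47.7 and 46.7 in BCL7B and 94.5 and 95.6 in brm-1. AT4G39880, annotated in the L23/L15e family, had 12.9 and 37.8 in BCL7B and 79.3 and 70.4 in brm-1. AT3G62870 took a rise of 50.5 points at a summit at -1630 bp from its TSS, which it shares with the nearer pentatricopeptide repeat gene AT3G62890. The largest fall of the list was AT1G53560 at -55.3. By count, 5.36% of the list rose and 2.23% fell.

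Of 47 proteasome genes 2 rose and none fell (median 6.79). RPT2a, an ATPase of the regulatory particle, had 60.9 and 62.6 in BCL7B and 87.2 and 91.8 in brm-1, and PBD2, a subunit of the core particle, rose by 6.79 points from ranks that were already high. Of 123 RNA helicase and splicing genes 6 rose and none fell (median 4.88). AT1G03140, a Prp18 family splicing gene, had 63.3 and 63.1 in BCL7B and 93.7 and 90.5 in brm-1. AT2G17240 shares the EMB2762 region, and AT2G18740 and AT3G24730 rose by 25.5 and 20.3 points.

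Of 86 respiratory chain and ATP synthase genes 9 rose and 1 fell (median 4.71), so 10.5% of the list rose. AT4G32470, a subunit gene of the ubiquinol oxidase family, had 8.1 and 3.6 in BCL7B and 43.4 and 68.6 in brm-1, and the ATP synthase gene AT2G19680 had 38.3 and 19.1 in BCL7B and 80.9 and 72.1 in brm-1. Replicates of a group were far apart at both genes, and the groups did not overlap, as at every called region. AT1G32710, annotated as a cytochrome c oxidase subunit, took a change of 44.0 from a summit at -1930 bp from its TSS and one of -0.39 by the recovered summit pileup, and the fall was CYTC-2, a cytochrome c gene, at -43.4. Of 150 pentatricopeptide repeat genes, whose products process organelle RNA, 5 rose and 2 fell (median 3.11). AT3G62890 and AT1G13040 rose by 50.5 and 49.9 points, AT5G15300 rose by 25.9, and AT5G46100 fell by 42.1 at a summit at -1610 bp from its TSS. Of 21 flowering time genes none was called, with a median of 2.99 and an interquartile range of 0.12 to 10.5.

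The other 35 lists had medians from -11.9 (WRKY genes, 4 of 36 fell and none rose) to 2.82 (translation factor genes, 4 of 59 fell and 3 rose). NAC genes had 8 falls and 1 rise among 45 genes, homeobox genes 9 and 2 among 55, and NLR disease resistance genes 13 and 1 among 75. Changes depend on the starting rank, since a site at the top of a list can only fall. Each gene was therefore also set against the median of genes of similar mean rank (classes of 10 points of the percentile averaged over the 4 libraries). These classes include the brm-1 values, so they do not hold the starting rank in BCL7B fixed. On that scale the 6 lowest lists lay between -16.8 and -10.4 and the 6 highest between 5.52 and 10.6. Each of these 12 medians stayed on its side of the median of all genes under 5 other scales and without each library in turn, but 3 of them moved by over 1.5 times when a library was left out. Relative to all genes, the meristem list went from -14.7 to -0.034 without BCL7B replicate 2 and to -9.35 without brm-1 replicate 2. The Aux/IAA and ARF list went from -11.7 to -6.82 without BCL7B replicate 1 and to -7.18 without brm-1 replicate 1. The flowering time list went from 4.69 to 1.79 without brm-1 replicate 2. By the percentiles of −log10 p and of recovered pileup, the pentatricopeptide repeat list went from 4.80 to 7.65 and 8.83, the RNA helicase and splicing list from 6.58 to 10.2 and 12.2, and the respiratory chain list from 6.40 to 9.88 and 9.70. Of the 61 genes with a called region that the naming rule gave, 58 and 56 lost the call without BCL7B replicate 1 or 2.

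**Figure D2:**
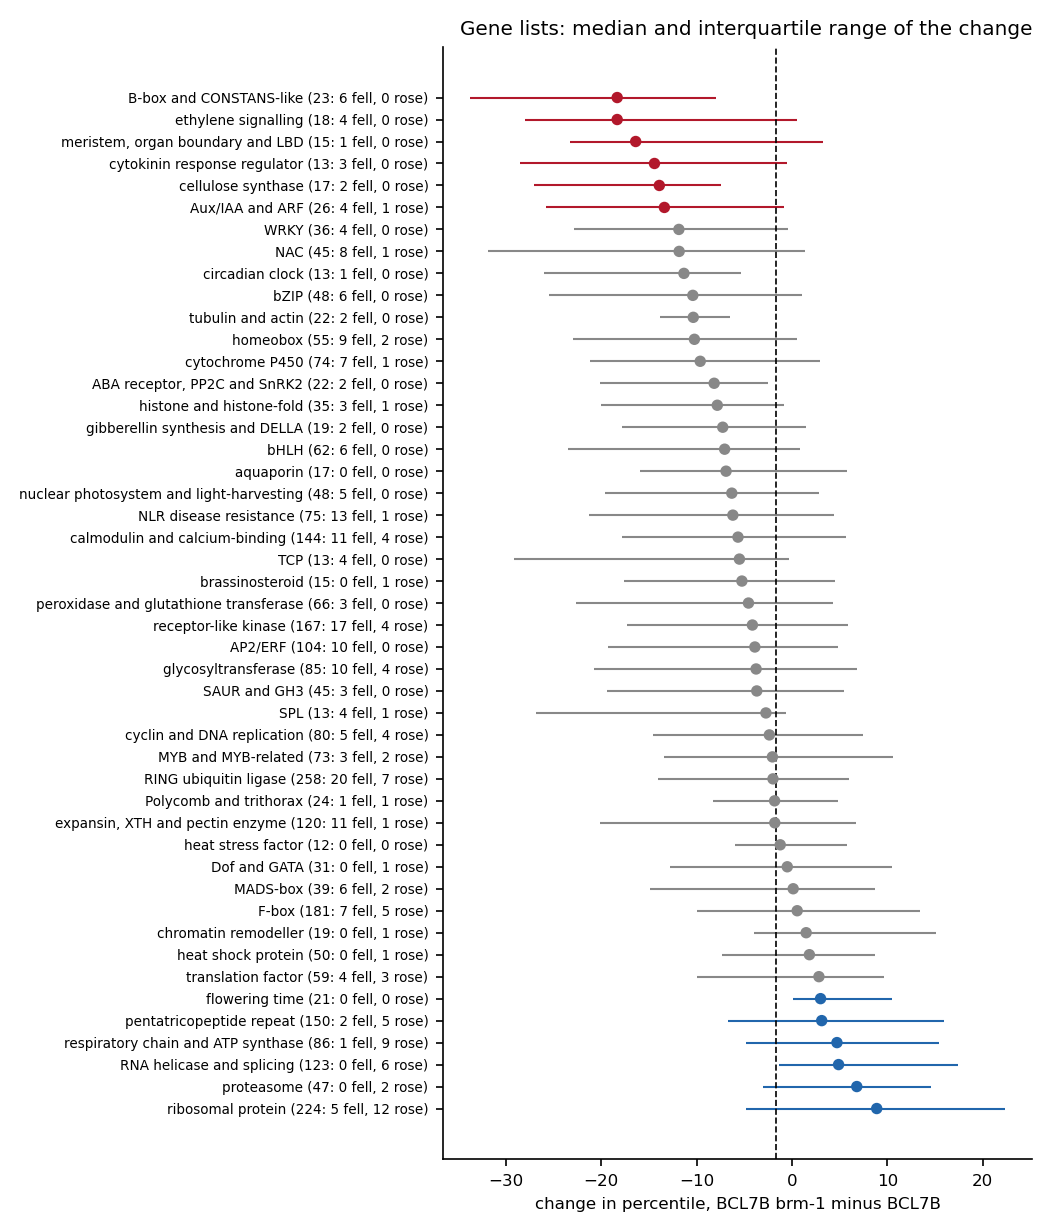
Median change in percentile (x axis, points) with the interquartile range as a line for the 47 gene lists with at least 10 genes, the 6 lowest in red and the 6 highest in blue. Labels give the number of genes with a shared region and how many fell and rose, and the dashed line is the median of all 17156 genes at -1.70, with the B-box and CONSTANS-like list at -18.3 and the ribosomal protein list at 8.88 as the ends.

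Genes were also grouped by annotation class. The median change was -1.72 over 14083 protein-coding genes, -2.17 over 1588 lncRNA genes and -0.70 over 343 tRNA genes. It was -0.31 over 120 microRNA genes, of which 5 fell and 2 rose, and 3.19 over 238 snoRNA and snRNA genes, of which 2 fell and 1 rose. For 45 antisense RNA genes the median was 2.18, and for 387 pseudogenes other than transposable element genes it was -2.37. Only 14 transposable element genes had a shared region, with a median of -6.88, and 1 fell and 1 rose. Small RNA genes often share a region, with 147 regions for the 238 snoRNA and snRNA genes. The medians of some classes depended on how genes were assigned. With each region given to its nearest gene only, the median was -5.75 at 47 microRNA regions (3 fell, none rose) and -4.27 at 156 tRNA regions. It was 0.32 at 199 pseudogene regions, of which 11 fell and 17 rose. Protein-coding and lncRNA regions stayed close to each other, at -2.42 and -2.41.

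Changes were then set against the position of the summit relative to the gene. Regions whose mean summit lay 0 to 100 bp downstream of the TSS had a median change of 1.24, with 131 falls and 148 rises among 2973. Regions 100 to 200 bp upstream had a median of -6.33, with 58 falls and 7 rises among 762. At 200 to 500 bp downstream 82 of 771 fell (10.6%) and 18 rose. By the base under the summit, the median was -0.10 in 5′ UTRs, -0.45 in coding exons, -4.57 within 1 kb upstream, -4.11 in 3′ UTRs and -7.58 in the 301 introns, where 24 regions fell and 3 rose. Across the chromosomes the share that fell ran from 5.67% on chromosome 3 to 7.86% on chromosome 2.

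Summits themselves moved little at most shared regions, with a shift of over 100 bp between groups at 15.9% of them. Between replicates the summit of a shared region differed by a median of 33 bp in BCL7B and 43 bp in brm-1, against 42 to 44 bp between groups. Relative to the nearest gene the brm-1 summits lay a median of 6.5 bp further downstream, and 14.0 bp at the regions that rose. The median position of all summits was 20 and 19 bp downstream of the TSS in BCL7B and 33 and 34 bp in brm-1. Summits in coding exons made up 7.76% and 7.61% of BCL7B peaks and 10.39% and 10.14% of brm-1 peaks, and summits within 1 kb upstream 30.0% and 30.5% against 27.7% and 27.5%. The groups did not overlap in these shares. The share of summits within 200 bp of a TSS was 54.8% ± 0.078 in BCL7B and 55.6% ± 0.403 in brm-1 (SD, n = 2 each), a difference of 0.812 percentage points with an exact two-sided permutation p of 0.33, the smallest possible. At shared regions only, the difference was -1.679, so its sign depended on the peaks counted.

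BRM lists, which no part of the BCL7B fit used, showed where BRM sat. The seedlings carried pBRM:BRM-GFP in the brm-1 mutant, so their only intact BRM was the tagged protein. Their lowest −log10 q was 0.48 and 0.58 and their median width 808 and 823 bp, a looser limit and wider peaks than in the BCL7B lists. Both BRM lists held a peak at 751 of the 767 regions that fell (97.9%), at 181 of the 343 that rose (52.8%) and at 8587 of the 10921 others (78.6%). Neither list held one at 1.0% of the regions that fell and 30.0% of those that rose. With BRM peaks of a −log10 q of at least 2 the shares in both lists were 97.4%, 49.3% and 76.2%. The median width of the regions was 852 bp at falls, 655 bp at rises and 725 bp at the others. Their median BCL7B percentile was 88.2, 67.3 and 61.3, in the same order. The part of width and of BCL7B rank in the shares was not tested. The median change was 9.26 at the 1497 regions with no BRM peak, with 8 falls and 103 rises. It was 4.13 at BRM percentiles up to 20 and -6.34 at those above 80, where 348 of 3369 regions fell (10.3%) and 41 rose. Both BRM lists held a peak at each of the 12 largest falls and at 5 of the 12 largest rises.

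**Figure D3:**
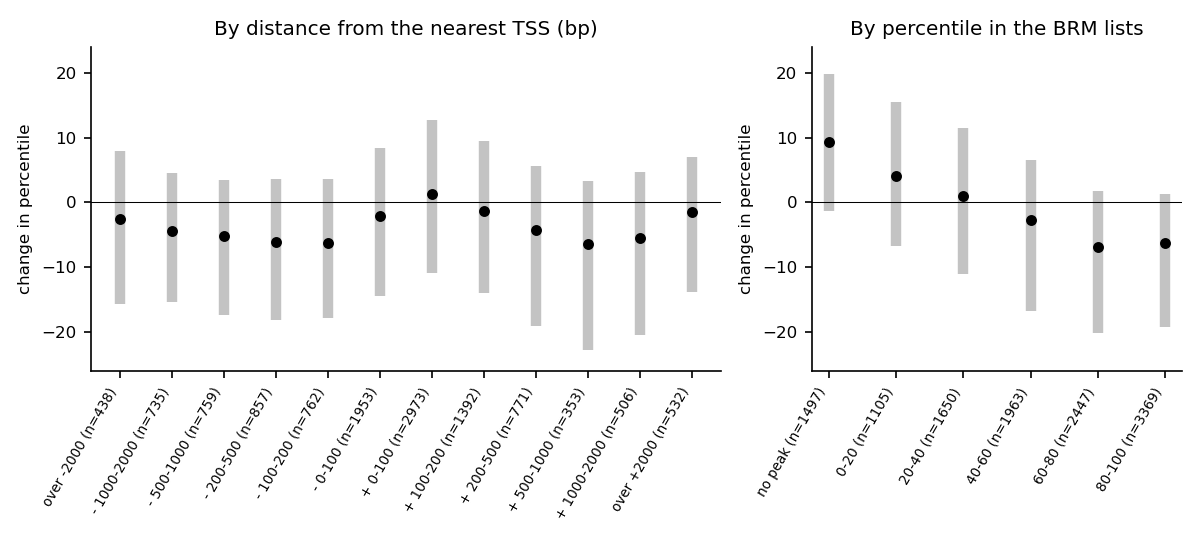
Median change in percentile (points, y axis; grey bars are interquartile ranges) of shared regions by the distance of the summit from the nearest TSS (left, minus for upstream) and by the mean percentile of the overlapping BRM peaks (right). On the left the highest median is 1.24 at 0 to 100 bp downstream, and on the right the median goes from 9.26 at the 1497 regions with no BRM peak to -6.34 at the 3369 regions with a BRM percentile above 80.

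BCL7A libraries of the same design, with and without brm-1, share no library with those of BCL7B. Their seedlings carried pBCL7A:BCL7A-GFP in the bcl7a mutant and so lacked native BCL7A. Over 14934 regions with a peak in all 4 BCL7A lists the same limma fit called 0 regions (0%, smallest adjusted p 0.109), with 2445 regions (16.4%) at an unadjusted p under 0.05, against 32.1% in the BCL7B fit. Of the 753 BCL7B falls matched to such a region, BCL7A was lower in brm-1 at 603 (80.1%), with a median change of -6.52. The share was 75.8% to 80.1% without each BCL7A library in turn. Of the 336 matched rises it was higher at 85.1%, with a median of 6.68, and at the 10571 other regions it was lower at 44.6%. Changes of the BCL7A and BCL7B contrasts correlated with a Pearson r of 0.433 and a Spearman rho of 0.402 across 11660 regions, which share base composition and the annotation but no library. All 12 of the largest BCL7B falls were lower and all 12 of the largest rises were higher in BCL7A brm-1. AT1G76520, for instance, had a BCL7A change of -55.8, and EMB2762 one of 1.18. Whether the contrasts differ from each other was not tested.

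**Figure D4:**
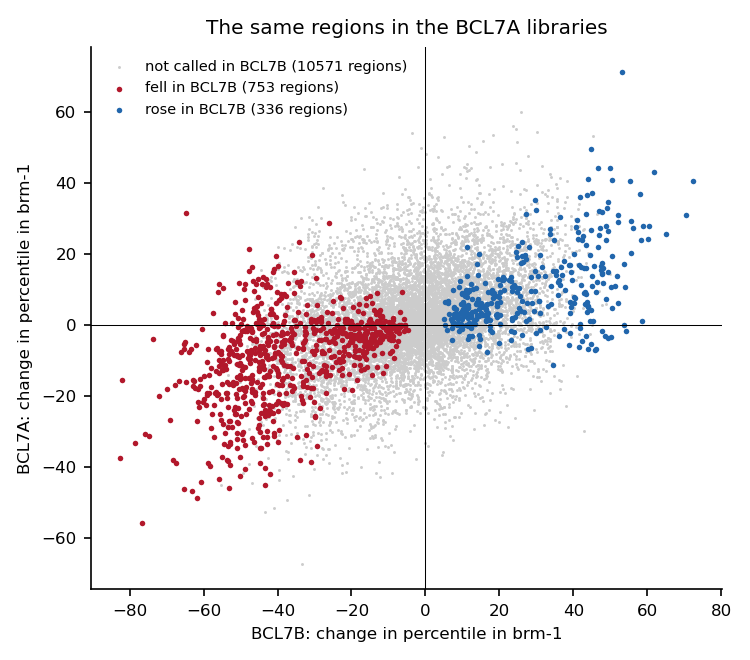
Change in percentile in brm-1 for BCL7B (x axis, points) and BCL7A (y axis, points) at 11660 shared regions, red where BCL7B fell, blue where it rose and grey elsewhere. Most red points (80.1%) lie below 0 for BCL7A and most blue points (85.1%) above 0.

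Motifs were counted on both strands in 300 bp around the mean summit. A site II element was found at 16.6% of the regions that fell, 43.7% of those that rose and 32.5% of all shared regions. The telo-box was found at 5.0%, 16.0% and 8.6%, in the same order. For the G-box (CACGTG), the word bound by bZIP and bHLH factors, the shares were 18.1%, 9.6% and 17.0%, and for the GAGA repeat they were 22.3%, 14.3% and 15.7%. The evening element (AAAATATCT), a word of clock-regulated promoters, was at 3.9%, 2.0% and 2.4%. Shares of the GCC-box (GCCGCC) were 6.9%, 10.5% and 7.9%, of the W-box (TTGACC or TTGACT) 28.2%, 31.5% and 33.6%, of the TATA box (TATAAA) 38.2%, 32.4% and 35.8%, and of CTCTGTTT, a motif of the demethylase REF6, 6.5%, 4.1% and 5.0%.

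Regions that rose lay nearer to a TSS, so the shares were also taken for summits within 200 bp of one. There the site II element was at 17.2% of 435 falls, 44.9% of 256 rises and 37.7% of 6395 others, and the GAGA repeat at 30.3%, 17.2% and 19.6%. BRM presence moved with the motif too. Both BRM lists held a peak at regions of which 27.2% had a site II element, against 56.4% of the regions with no BRM peak. Among regions with BRM peaks the median change was -1.17 with the element and -6.25 without it. Among those with no BRM peak it was 9.93 and 8.32. The median GC content of the 300 bp was 35.7% at falls, 39.0% at rises and 37.3% over all shared regions, and its part in these shares was not tested.

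**Figure D5:**
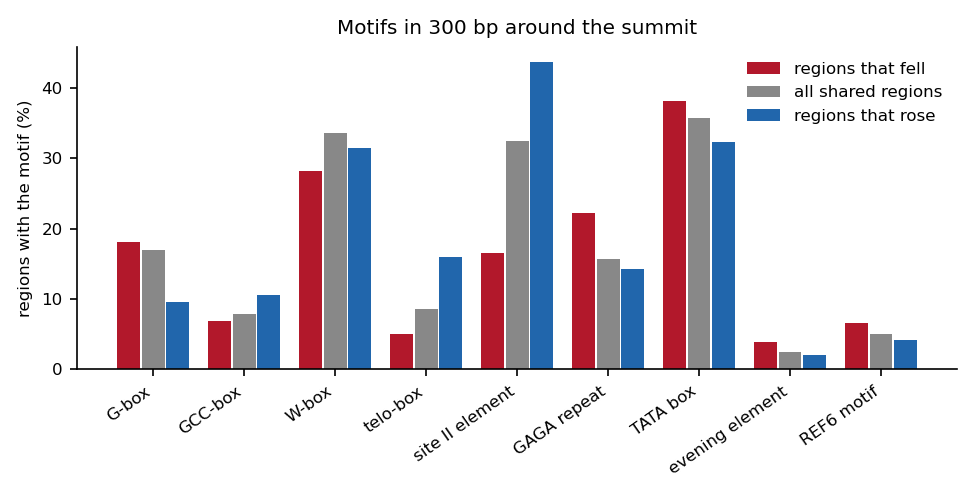
Share of regions (y axis, %) with each motif in 300 bp around the summit, for the 767 regions that fell (red), all 12031 shared regions (grey) and the 343 that rose (blue). The site II element stands at 16.6%, 32.5% and 43.7%, and the GAGA repeat at 22.3%, 15.7% and 14.3%.

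Some genes had a peak in 1 group only. A summit lay within 2 kb of the TSS of 20478 genes in both BCL7B lists and of 18512 in both brm-1 lists, 17237 of them in all 4. Of the 20478 genes, 1484 (7.25%) had none in either brm-1 list, and of the 18512, 430 (2.32%) had none in either BCL7B list. With the same number of peaks in every list the counts were 1002 and 1046. Lists of equal length tend to balance the genes lost and gained. These counts therefore cannot separate list length from a real loss of sites. Without brm-1 replicate 1 or 2 the first count was 2265 and 2460, and the second was 777 to 913 without any 1 of the 4 libraries. Genes bound in a single group were mostly weak: their median percentile was 27.5 and 25.4, against 65.9 in the BCL7B lists for genes bound in all 4. The strongest of the first kind were AT1G18660, a RING finger gene (97.4 and 96.1), the neighbours AT1G12669, AT1G12670 and AT1G12672, which share a peak (94.0 and 96.1), and PTL, a trihelix factor gene of organ boundaries (94.9 and 94.5). The strongest of the second kind were LCR39, a gene of a small cysteine-rich protein (89.8 and 95.5 in brm-1), the cyclin gene CYCJ18 (83.4 and 90.7), AT1G15415 (84.6 and 88.2), the tRNA gene AT1G21800 (78.8 and 78.7) and the pentatricopeptide repeat gene AT1G16830 (78.5 and 75.8). An unlisted site can still be bound, since depth and the limit of the caller decide which weak sites are listed.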

How the data were processed

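ChIP-seq peak lists of BCL7B and BCL7B brm-1 were analysed (n = 2 each), with those of BCL7A, BCL7A brm-1 and BRM for comparison. The authors trimmed reads with fastp, mapped them to TAIR10 with Bowtie 2, retained reads with a perfect, unique match, removed duplicates (per the peak names) and ran MACS2 on each library (version 2.1.1 in the submitters' processing notes). Use of an input is not given in the sources used here. The deposited lists give fold enrichment as a ratio and −log10 of the p-value and q-value. The limit stated is q = 0.05, and the lowest −log10 q was 2.03 to 2.15 in the 4 lists. The authors' summit position, deposited per peak, was used as given. Columns after the summit hold further coordinates without a header and were not used.

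Peaks sharing at least 1 bp were merged, and the strongest peak of a library stood for the region. Percentiles of the fold ratio were compared with limma 3.58.1 (R 4.3.3, trend, two-sided, group only), checked on simulated data. The study used read counts, which were not analysed here. Summit pileups were recovered from fold and p at 99.8% to 99.9% of peaks. Genes were named by rule: the 12 largest called falls and rises whose libraries did not overlap and that had a TSS within 2 kb, the 5 strongest genes bound in a single group in each direction, up to 4 called members of each of the 12 described lists, and loci of the study. Members and lists were chosen with earlier results of these data known. Alternatives covered scale, peak matching, filters, block and each library left out, and the recovered pileup, the BCL7A libraries left out, the stricter BRM peaks and the list medians on other scales were added after seeing the data.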

Additional observations from a re-analysis of the deposited data

Results flagged for a closer look

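The lists also held peaks on the organelle genomes, which entered no comparison: BCL7B had 41 and 43 of them and BCL7B brm-1 had 45 and 50, with no control library to set them against.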

How the results depend on the processing

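Calls of regions moved with the setting, and the cause was not tested. Falls and rises numbered 767 and 343 in the reported fit. They numbered 1310 and 660 by the percentile of −log10 p, 1481 and 738 on the logit scale, 1559 and 1594 on the centred log2 scale, and 1845 and 1216 by the percentile of the recovered summit pileup. Ranks among shared regions gave 455 falls. Matching by summits, or peaks at −log10 q 5 and above, kept both counts within 1.5 times. The labels number the libraries of both groups 1 and 2, but same-numbered libraries did not deviate together (Pearson r -0.021 across regions). With 2 libraries per group this value cannot exclude a batch shared by libraries of the same number. With a replicate block the counts were 1176 and 549. Leaving out each library gave 0 to 1350 falls and 19 to 320 rises, 1953 to 2460 genes with a summit in BCL7B only and 777 to 913 in brm-1 only. An equal number of peaks per list gave 1046 genes in brm-1 only. The difference in the share of summits within 200 bp of a TSS was 1.392 percentage points for peaks at −log10 q 5 and above and -1.679 at shared regions. At AT1G32710 the change was -0.39 by recovered pileup. Of the 61 genes named by rule with a called region, 11 lost the call by rank among shared regions and 9 and 11 without brm-1 replicate 1 or 2. With 2 libraries per group, no value per library can pass 0.05 by permutation, and depth limits which weak sites are listed.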
